A study of Homo sapiens with 4 samples.

Results

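The transcription factors that set and mark breast epithelial lineages were followed in HCC1954 cells, a human breast cancer line, after knockdown of ZDHHC15. The 9 factors were chosen by name: ESR1, PGR, GATA3, FOXA1, TFAP2A, TP63, ELF3, ELF5 and GRHL2. They are 9 of the 58735 genes in the deposited count table, and 7 of them had enough counts to enter the test. RNA sequencing covered 4 samples of this line, 2 with a scrambled control hairpin (shCON) and 2 with a hairpin directed at ZDHHC15 (shZDHHC15), a palmitoyltransferase that the study placed upstream of the co-activator YAP. All 4 samples were grown in RPMI-1640 with serum, and the labels describe plasmid transfection of the lentiviral hairpin vectors with harvest after 36 h. The series text calls the knockdown stable and the study's methods speak of monoclonal cultures, so whether the samples of a group are separate clones, cultures or repeat libraries is not given, and the p-values measure the spread between these samples only.

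Breast ducts hold a luminal layer and a basal layer, and each is kept by its own set of transcription factors. ESR1 (oestrogen receptor alpha), its target PGR (progesterone receptor), the zinc finger factor GATA3 and the pioneer factor FOXA1 act together in hormone-sensing luminal cells, while ELF5 drives the secretory luminal progenitor and TP63 (p63) is required for the basal layer. TFAP2A (AP-2 alpha), ELF3 and GRHL2 (grainyhead-like) act more broadly in epithelia, the last by keeping genes of cell junctions active. HCC1954 is known as a line with amplified ERBB2 and without oestrogen or progesterone receptor protein.

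In shZDHHC15 cells ESR1 and TP63 were higher and TFAP2A and GRHL2 lower, whereas ELF3, FOXA1 and GATA3 did not pass the test and PGR and ELF5 were near or at 0 counts in every sample. The calls were 2 higher and 2 lower of the 7 factors tested, or 57.1%, against 42.0% of all 15817 genes tested and 40.6% of the 1090 tested genes that the table assigns to a transcription factor family. A gene was called when its p in the quasi-likelihood test of edgeR, adjusted by Benjamini-Hochberg over all 15817 genes, was under 0.05 at any fold change. By direction, 21.7% of all genes tested were called higher and 20.3% lower. The share of called factors therefore lay near a background in which a large part of the transcriptome differed, and the factors are described one by one.

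**Figure D1:**
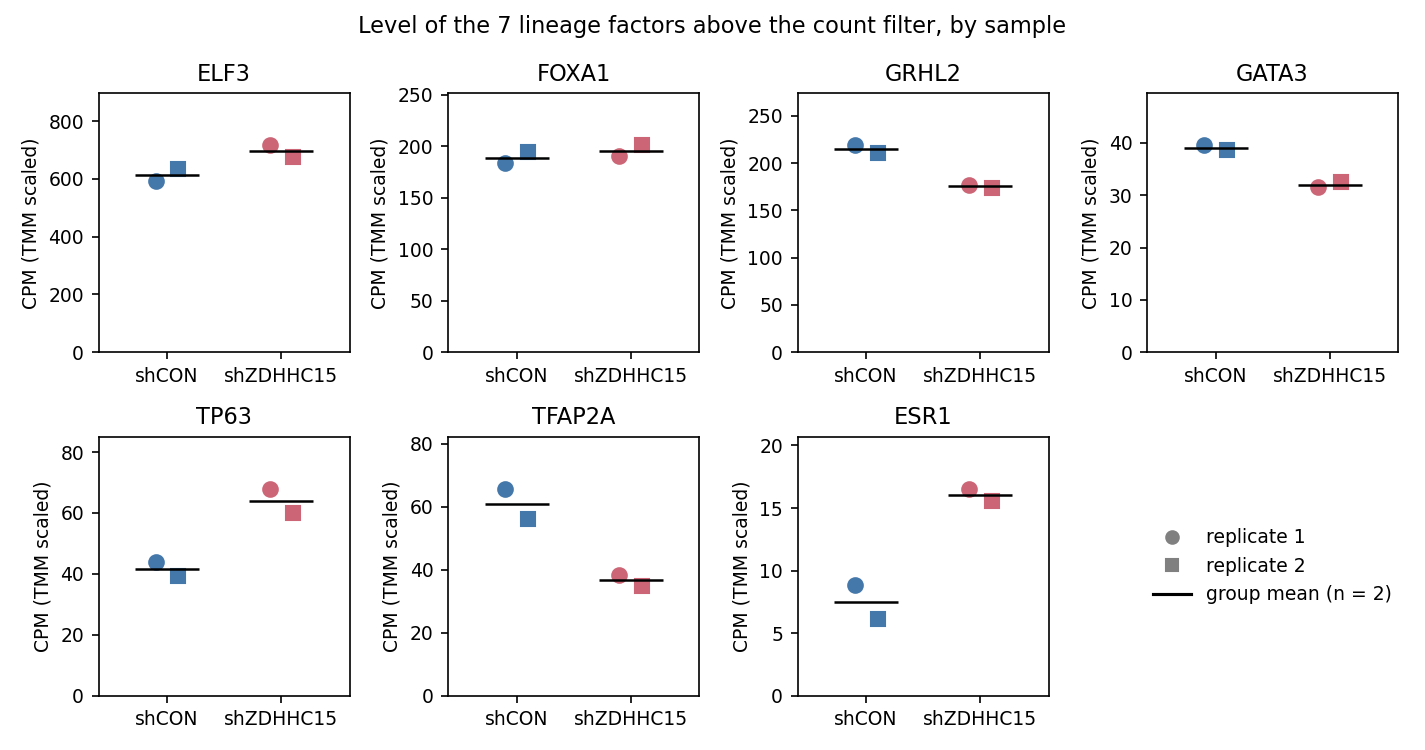
Level of each of the 7 tested factors in CPM (counts scaled to a common library total after TMM normalization, y axes from 0) in the 2 shCON and 2 shZDHHC15 samples, with the group mean as a line. ESR1, TP63 and ELF3 lie higher and TFAP2A, GRHL2 and GATA3 lower in both shZDHHC15 samples, while the FOXA1 samples of the groups interleave. ELF3 and GATA3 did not pass the test.

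The sequences before the gene starts are shown as a stretch of DNA on which these factors and YAP's partner TEAD could act. DNA farther from the starts was not searched. RefSeq windows of 300 bases around annotated starts (GRCh38.p14, 250 bases before and 50 after) were found for 8 of the 9 factors, 21 windows in all, with none for GRHL2. For 4 genes the 250 upstream bases of a window lay wholly before the annotated gene, outside every annotated exon, and are given 5′ to 3′ on the gene's strand, with capitals marking the letters of any searched motif on either strand.
ESR1 (chr6:151656422-151656671, + strand): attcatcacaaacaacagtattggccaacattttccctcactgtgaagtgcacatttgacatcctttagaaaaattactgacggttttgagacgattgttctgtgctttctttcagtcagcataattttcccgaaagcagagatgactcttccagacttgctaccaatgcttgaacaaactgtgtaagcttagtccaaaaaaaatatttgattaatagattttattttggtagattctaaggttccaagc
GATA3 (chr10:8045083-8045332, + strand): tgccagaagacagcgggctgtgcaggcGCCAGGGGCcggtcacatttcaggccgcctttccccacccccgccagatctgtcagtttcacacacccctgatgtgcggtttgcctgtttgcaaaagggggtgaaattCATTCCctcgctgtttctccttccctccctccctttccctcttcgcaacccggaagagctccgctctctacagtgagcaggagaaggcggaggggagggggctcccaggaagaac
TFAP2A (chr6:10419660-10419909, - strand): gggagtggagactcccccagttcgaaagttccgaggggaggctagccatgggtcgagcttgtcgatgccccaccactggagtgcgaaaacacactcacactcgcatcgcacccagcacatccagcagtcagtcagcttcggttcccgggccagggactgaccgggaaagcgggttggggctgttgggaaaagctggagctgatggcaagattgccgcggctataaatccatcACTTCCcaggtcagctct
TP63 (chr3:189631139-189631388, + strand): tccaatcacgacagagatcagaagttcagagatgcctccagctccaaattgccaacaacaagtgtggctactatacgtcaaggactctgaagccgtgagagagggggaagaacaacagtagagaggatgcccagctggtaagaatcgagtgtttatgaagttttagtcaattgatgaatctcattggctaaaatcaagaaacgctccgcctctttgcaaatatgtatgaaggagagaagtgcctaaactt

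The motifs searched on both strands were GGAATG for TEAD factors, TGTTTAC for FOXA factors, AGATAA for GATA factors, GCCNNNGGC for AP-2, AACNNGTT for grainyhead and GGAAGT for ETS factors. In the GATA3 window the capitals mark an AP-2 match and then a TEAD match, and in the TFAP2A window an ETS match. The ESR1 and TP63 windows shown held none of these letters. Each lies before the first annotated start of its gene only, while ESR1 has 13 annotated starts and TP63 has 8. The TEAD letters stood in 2 of the 21 windows, that of GATA3 shown here and an internal ESR1 window inside an annotated exon, which is 9.52% against 14% of all RefSeq windows of this length. AP-2 letters stood in 5 windows, of which 2 are overlapping PGR windows that hold the same site (23.8% against 23.2% of all windows), ETS letters in 4 (19% against 22.8%) and FOXA letters in 1, that of ELF5 (4.76% against 3.42%). No window of the factors held the GATA or grainyhead letters, which 10.3% and 3.52% of all windows hold. A match is a description of letters and says nothing of binding.

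The targeted gene and the state of the libraries were read first. ZDHHC15 had 17617 and 15716 counts in shCON and 0 and 0 in shZDHHC15, so the labels and the target went together. This level was at least 6047-fold lower against a floor of 3 counts per library. Whether a hairpin alone accounts for 0 counts in both shZDHHC15 samples was not tested. YAP1, the co-activator at the end of the Hippo pathway, was lower too (log2 fold change -2.81, SE 0.10, edgeR adjusted p = 4.30e-11). Total counts lay between 17560982 and 19118704, and limits from counts cover counting error only. The 7 epithelial markers EPCAM, KRT7, KRT8, KRT18, KRT19, CDH1 and ERBB2 were all present, but their summed level was 9474 and 9621 CPM in shZDHHC15 against 16550 and 17880 CPM in shCON, with 5 of 7 called lower and 1 (KRT19) higher. Of 5 leukocyte markers, 2 were at 0 throughout, CD3E among them, and the sum was 17 and 14 counts in shCON and 36 and 29 in shZDHHC15. The 3 endothelial markers summed to 882 and 843 counts in shCON and 1892 and 1899 in shZDHHC15, nearly all from PECAM1 and CDH5, and the 5 fibroblast markers to 105 and 122 against 215 and 165, nearly all from COL1A1. Whether these movements had a part in the values of the lineage factors was not tested. In bulk RNA, fewer cells of a type and less RNA per cell cannot be told apart.

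Among the hormone receptors, ESR1 was higher in shZDHHC15 by about 1 unit on the log2 scale. The gene (ENSG00000091831) lies on the plus strand at chr6:151656691-152129619 in GRCh38 and had 161 and 103 counts in shCON against 308 and 305 in shZDHHC15, or 8.83 and 6.11 CPM against 16.5 and 15.5 CPM. Both knockdown samples lay above both controls, and the controls differed from each other more than the knockdown samples did. The log2 fold change was 1.09 (SE 0.18, 95% interval 0.71 to 1.48, edgeR adjusted p = 0.000213), a 2.14-fold higher level, and it ran from 0.86 to 1.37 when each sample was left out in turn. Per length the level stayed low, at 1.83 ± 0.54 TPM in shCON and 4.22 ± 0.19 TPM in shZDHHC15 (SD, n = 2). ESR1 ranked 888 and 921 among the 1553 genes with a transcription factor family in the control samples and 773 and 775 in the knockdown samples. A sense intronic transcript, AL078582.1, shares 135 bases with ESR1 exons (0.974% of them) and had 69 and 42 counts against 77 and 96.

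PGR, the classic oestrogen-induced gene of luminal cells, stayed at the floor. The gene (ENSG00000082175, chr11:101029624-101130524, minus strand) had 1 and 0 counts in shCON and 0 and 0 in shZDHHC15, which at this depth allows a level of up to 3 counts per library, or between 0.153 and 0.178 CPM. PGR-AS1, the antisense transcript that overlaps it, had 0 counts in all 4 samples. No difference of PGR was detectable at this depth while ESR1 moved, and PGR did not enter the test.

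GATA3, which holds luminal identity together with ESR1 and FOXA1, was lower in both knockdown samples but did not pass the test. It had 721 and 651 counts in shCON and 588 and 638 in shZDHHC15, or 39.5 and 38.6 CPM against 31.6 and 32.5 CPM. The groups did not overlap, and the gap between them was wider than the gap within either. The log2 fold change was -0.29 (SE 0.11, 95% interval -0.53 to -0.05) with an edgeR adjusted p of 0.0519, just above the threshold of 0.05, and it passed with DESeq2 size factors (adjusted p = 0.0442). The gene (ENSG00000107485, chr10:8045378-8075203, plus strand) shares no exon bases with another annotated gene.

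FOXA1, which opens chromatin for ESR1 and other nuclear receptors, did not differ in CPM beyond the spread of the samples. Its 183 and 194 CPM in shCON and 190 and 201 CPM in shZDHHC15 interleaved, the only such case among the 7 tested factors. In TPM, which carries no TMM scaling, the FOXA1 groups did not overlap (160.1 and 160.1 against 174.3 and 183.6). CPM groups that did not overlap were seen for 6 of the 7 and for 72.5% of all genes tested. The log2 fold change was 0.05 with a 95% interval from -0.14 to 0.25 (edgeR adjusted p = 0.68), and it was -0.01 without shCON replicate 1. FOXA1 (ENSG00000129514) lies on the minus strand at chr14:37589984-37596059, and the divergent gene TTC6 starts 212 bases away and shares 16 exon bases with it. TTC6 had 68 and 35 counts in shCON against 84 and 77 in shZDHHC15.

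TFAP2A fell the most of the 7 tested factors. This AP-2 family member acts in neural crest, skin and mammary epithelium. The gene (ENSG00000137203, chr6:10393186-10419659, minus strand) had 1199 and 946 counts in shCON and 716 and 683 in shZDHHC15. In CPM these are 65.8 and 56.1 against 38.4 and 34.8, with both knockdown samples below both controls. The log2 fold change was -0.74 (SE 0.12, 95% interval -0.98 to -0.49, edgeR adjusted p = 0.000158), or 1.66-fold lower in shZDHHC15, and it ran from -0.85 to -0.64 with each sample left out. Its rank among transcription factor genes was 249 and 275 in shCON and 405 and 419 in shZDHHC15.

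The antisense transcripts at this locus are listed beside it because counting by strand is not stated in the sources used here, and reads of overlapping genes could then fall to either. TFAP2A-AS2 overlaps 11.4% of TFAP2A exon bases and had 71 and 58 counts in shCON and 39 and 48 in shZDHHC15 (log2 fold change -0.69, SE 0.27, edgeR adjusted p = 0.0484). That call was lost when any 1 of the 4 samples was left out, with adjusted p of 0.163 and 0.0644 without shCON replicates 1 and 2 and 0.208 and 0.0743 without shZDHHC15 replicates 1 and 2. TFAP2A-AS1 overlaps 5.29% and had 30 and 33 counts against 23 and 27. Both are far smaller than the TFAP2A counts themselves.

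TP63, which basal cells depend on, was higher. The gene (ENSG00000073282, chr3:189631416-189897279, plus strand) had 802 and 665 counts in shCON and 1265 and 1176 in shZDHHC15, or 44 and 39.4 CPM against 67.9 and 59.9 CPM. Both knockdown samples lay above both controls. The log2 fold change was 0.61 (SE 0.11, 95% interval 0.37 to 0.86, edgeR adjusted p = 0.000531), or 1.53-fold, and ran from 0.52 to 0.70 with each sample left out. The count table holds 1 value per gene, so the long form and the N-terminally truncated form of p63, which start from different promoters, cannot be told apart.

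GRHL2 was slightly lower. It keeps E-cadherin, claudins and other junction genes active in epithelia. The gene (ENSG00000083307, chr8:101492432-101669726, plus strand) had 3992 and 3558 counts in shCON and 3302 and 3416 in shZDHHC15, or 219 and 211 CPM against 177 and 174 CPM. The groups did not overlap, and the fall was of the size seen for GATA3 with a smaller error. The log2 fold change was -0.29 (SE 0.09, 95% interval -0.48 to -0.10, edgeR adjusted p = 0.0167). The call was lost without shZDHHC15 replicate 1 (-0.31, adjusted p = 0.101), without shZDHHC15 replicate 2 (-0.28, adjusted p = 0.129) and when libraries were scaled by total count only (-0.22, adjusted p = 0.0603). The antisense AP001207.3 shares 50 exon bases with it and had 30 and 7 counts against 10 and 5.

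ELF3, an ETS factor of epithelia, had the highest level per length of the 9. By TPM it ranked 18 in both control samples and 13 and 15 in the knockdown samples among the 1553 transcription factor genes. The gene (ENSG00000163435, chr1:202007945-202017188, plus strand) had 10804 and 10712 counts in shCON and 13347 and 13278 in shZDHHC15, or 593 and 635 CPM against 717 and 676.5 CPM. The knockdown samples lay above the controls, but the log2 fold change of 0.18 (SE 0.09, 95% interval -0.00 to 0.37) had an edgeR adjusted p of 0.107. With libraries scaled by total count only it passed (0.26, adjusted p = 0.0179). ELF3-AS1, antisense to it over 9.23% of its exon bases, did pass the test, with 220 and 237 counts against 417 and 414 (log2 fold change 0.74, SE 0.14, edgeR adjusted p = 0.00079). AL691482.3, which shares as many bases, had 41 and 42 counts against 53 and 71 and did not pass. Here too the use of strand is not stated, so reads of ELF3 could have fallen to ELF3-AS1. AL691482.3 lies on the same strand as ELF3, so reads in their shared bases are ambiguous with or without counting by strand. How many reads of ELF3 fell to these far smaller genes was not tested.

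ELF5, the ETS factor of the milk-forming lineage, had 0 counts in all 4 samples. The gene (ENSG00000135374, chr11:34478793-34513805, minus strand) could thus not be compared, and any level up to 3 counts per library would have gone unseen.

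**Figure D2:**
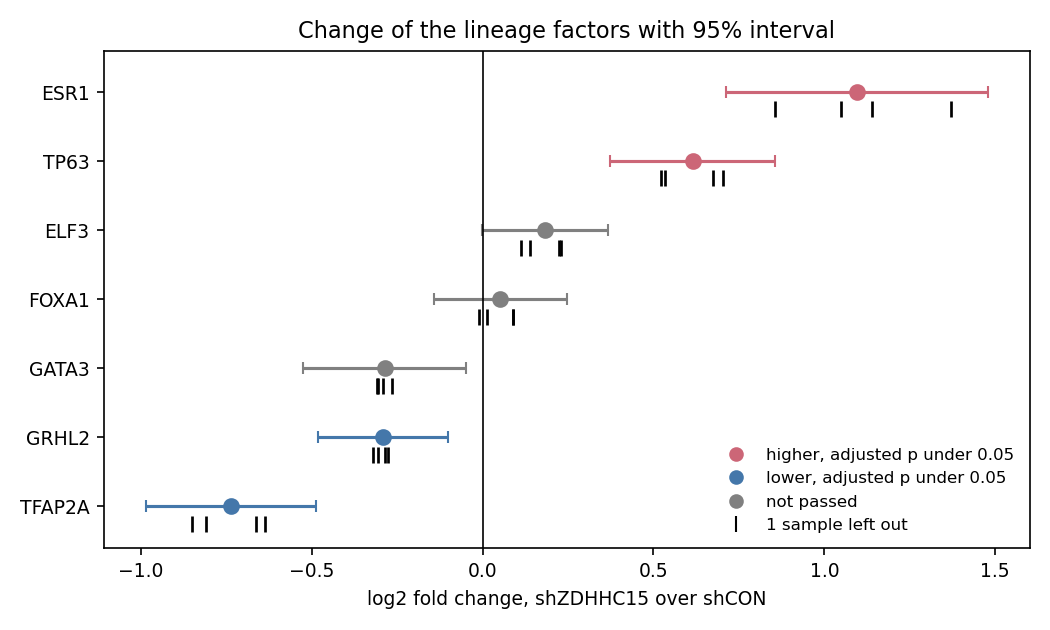
Log2 fold change of shZDHHC15 over shCON (x axis) for the 7 tested factors, with points for the estimate from 2 against 2 samples, bars for the 95% interval and ticks for the 4 estimates with 1 sample left out. ESR1 (1.09) and TP63 (0.61) lie to the right of 0 and TFAP2A (-0.74) to the left with all ticks on the same side, while FOXA1 has a tick on each side.

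Levels between genes were compared in TPM, in which counts are divided by gene length before scaling to a common total. TPM carries no TMM scaling, so the shift of a gene between the groups can differ from that in CPM, as it did for FOXA1. In shCON the order was ELF3 (288 ± 2.91 TPM), FOXA1 (160.1 ± 0.05), GRHL2 (120 ± 7.82), GATA3 (38.4 ± 2.15), TFAP2A (24.9 ± 3.76), TP63 (18.9 ± 2.20) and ESR1, with PGR and ELF5 at the floor (SD, n = 2). In shZDHHC15 it was ELF3 (353 ± 14.8 TPM), FOXA1 (179 ± 6.58), GRHL2 (106 ± 1.51), GATA3 (34 ± 0.66), TP63 (31.2 ± 2.80), TFAP2A (16.1 ± 1.15) and ESR1. TP63 and TFAP2A thus changed places. The only neighbours whose samples overlapped were PGR and ELF5, in both groups. GATA3 and TP63 in shZDHHC15 did not overlap but lay close, at 33.49 and 34.42 TPM against 33.21 and 29.25 TPM.

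**Figure D3:**
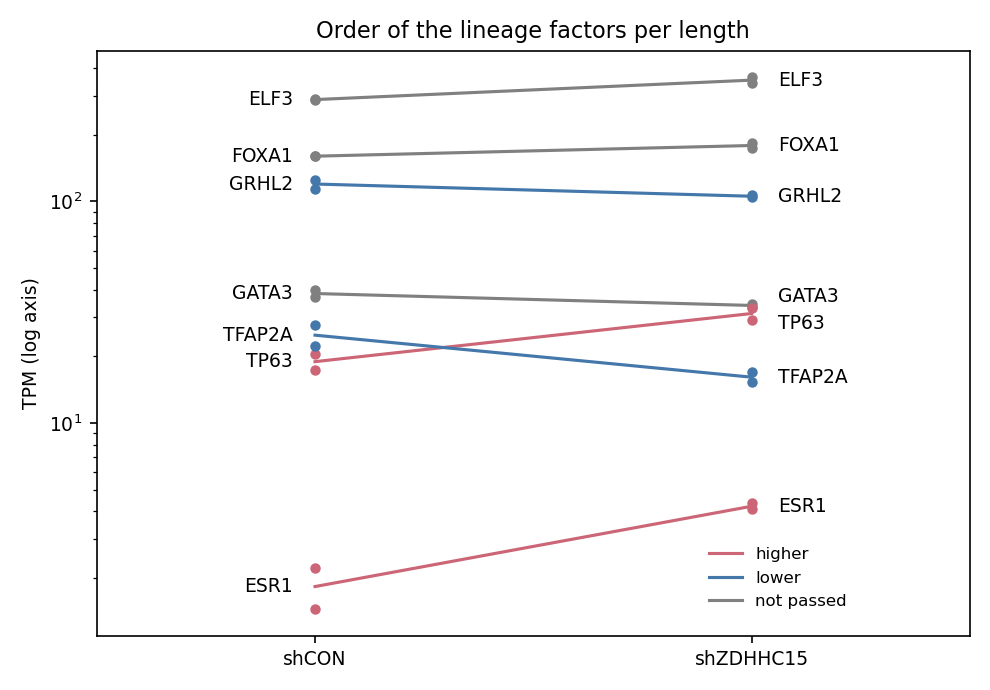
TPM (log axis) of the 7 tested factors in the shCON and shZDHHC15 samples, with a line between the group means and points for the samples. The lines of TP63 and TFAP2A cross, the line of ESR1 is the steepest, and the 3 most abundant factors, ELF3, FOXA1 and GRHL2, keep their order.

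Ratios within a library do not depend on how libraries are scaled. The ratio of TFAP2A to TP63 in TPM was 1.35 and 1.28 in shCON and 0.51 and 0.523 in shZDHHC15, a turn from more TFAP2A to more TP63 in each sample. The ratio of GATA3 to TP63 went from 1.95 and 2.12 to 1.01 and 1.18. ESR1 stood at 0.0802 and 0.065 of TFAP2A in shCON and at 0.257 and 0.267 in shZDHHC15. GATA3 and GRHL2 kept a near constant ratio, with 0.319, 0.323, 0.314 and 0.329 in the 4 samples. It was the only 1 of the 21 pairs of tested factors whose groups overlapped. The pairs reuse the same factors, and the share among pairs of other genes was not computed. Of all single genes tested, 72.5% had groups that did not overlap.

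Each factor belongs to a family whose members bind like sequences, so the share of the factor in its family's summed TPM was read in each sample. TFAP2A made up 10.3% and 9.04% of AP-2 family TPM in shCON and 6.11% and 5.58% in shZDHHC15. Nearly all of the rest was TFAP2C (AP-2 gamma), at 240 and 223 TPM against 258 and 258 TPM, which did not pass the test (log2 fold change 0.05, edgeR adjusted p = 0.693). The summed AP-2 TPM was 268 and 247 in shCON and 277 and 274 in shZDHHC15, and so was not lower as TFAP2A was. TFAP2B, the other mammary AP-2 gene, was at 0 in both controls and at 22 and 15 counts in shZDHHC15. This level was at least 5.68-fold higher against the floor of 3 counts per library. TFAP2B entered the test only through its shZDHHC15 counts, and it is among the paralogues counted as higher below.

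TP73, the paralogue of TP63 from which p73 is made, had 11 and 11 counts in shCON and 92 and 89 in shZDHHC15 (log2 fold change 2.90, SE 0.33, edgeR adjusted p = 8.08e-06). It was thus higher together with TP63, and by more, from a low level.

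Of the grainyhead family GRHL2 made up 83.2% and 83.9% of TPM in shCON and 70.5% and 73.2% in shZDHHC15. GRHL1 was higher, with 809 and 689 counts against 1660 and 1408 (log2 fold change 0.91, SE 0.12, edgeR adjusted p = 2.87e-05), at 19.4 and 16.9 TPM against 40.9 and 32.8 TPM. The summed TPM of the 3 grainyhead genes was 151 and 136 in shCON and 151 and 143 in shZDHHC15, with overlapping groups. EHF, the ELF3 relative of secretory epithelia, was higher as well, with 685 and 516 counts against 1155 and 1262 (log2 fold change 0.89, SE 0.12, edgeR adjusted p = 3.41e-05), and ELF3 went from 90.6% and 92.7% of the epithelial ETS trio to 87.6% and 86.5%.

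Among GATA1 to GATA6 the gene that passed the test was GATA6. This factor, better known from endoderm, had 1065 and 1034 counts in shCON and 452 and 500 in shZDHHC15 (log2 fold change -1.27, SE 0.11, edgeR adjusted p = 5.49e-07). GATA3 therefore went from 30.6% and 29.1% of GATA family TPM to 35% and 35.9% while its own level was lower. Among the relatives of ESR1 and PGR, NR3C1 (glucocorticoid receptor) was lower (log2 fold change -0.49, edgeR adjusted p = 0.0135), a call that was lost without shZDHHC15 replicate 1 (adjusted p = 0.212). ESR2 had 10 and 10 counts against 33 and 24 and was called higher (log2 fold change 1.38, edgeR adjusted p = 0.0207). The shCON counts of ESR2 alone would not have met the filter on low counts, and it is among the paralogues counted as higher. Over the 23 paralogues of the 9 factors, 18 entered the test, 6 were higher, 2 lower and 10 did not pass (44.4% called against 42.0% of all genes tested and 40.6% of the tested transcription factor genes), with a median log2 fold change of 0.124 against 0.015 over all genes tested and 0.115 over the tested transcription factor genes.

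Of 16 other factors of luminal cells all entered the test, and 8 were higher, 4 lower and 4 did not pass (75% called against 42.0% of all genes tested), with a median log2 fold change of 0.42. TBX3, a T-box factor of hormone-sensing cells, had 130 and 119 counts in shCON and 320 and 323 in shZDHHC15 (log2 fold change 1.24, SE 0.16, edgeR adjusted p = 2.12e-05). TRPS1, an atypical GATA factor retained in most breast cancers, had 441 and 352 against 964 and 818 (log2 fold change 1.050, SE 0.13), and STAT5A, which relays prolactin, had 216 and 184 against 456 and 456 (log2 fold change 1.07, SE 0.14). NRIP1, a corepressor that oestrogen receptor induces, CEBPB and RARA were also higher, by 0.93, 0.89 and 0.67 on the log2 scale.

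The luminal factors that were lower were led by NR2F2 (COUP-TFII), with 3532 and 3182 counts against 1996 and 2286 (log2 fold change -0.77, SE 0.09, edgeR adjusted p = 1.39e-05). RUNX1, ESRRA and LMO4 were lower by smaller amounts, with log2 fold changes of -0.57, -0.39 and -0.40. The calls of ESRRA and LMO4 were lost without shZDHHC15 replicate 1 (adjusted p = 0.0986) and without shZDHHC15 replicate 2 (adjusted p = 0.0768), in that order. SPDEF and XBP1, both partners of the oestrogen receptor programme, had log2 fold changes of 0.01 and 0.01 and did not pass. Calls thus fell on both sides in this list.

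Of 17 other basal and epithelial factors 16 entered the test, with 5 higher, 5 lower and 6 not passing (62.5% called against 42.0% of all genes tested), and a median of -0.13. SNAI2 (Slug), a repressor active in basal cells, had 863 and 829 counts against 410 and 563 (log2 fold change -0.93, SE 0.13, edgeR adjusted p = 5.72e-05), and ID4, an inhibitor of bHLH factors in basal stem cells, had 451 and 502 against 221 and 337 (log2 fold change -0.90, SE 0.17). KLF4 and SOX9 were lower by smaller amounts, with log2 fold changes of -0.70 and -0.37. SNAI2 and ID4 thus lay on the opposite side from TP63.

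The higher genes of that list were BCL11B, BCL11A, GRHL1, EHF and NFIB. BCL11B, a zinc finger factor of basal stem cells, had 15 and 9 counts in shCON and 98 and 77 in shZDHHC15 (log2 fold change 2.73, SE 0.35, edgeR adjusted p = 2.63e-05). The shCON counts of BCL11B alone would not have met the filter on low counts, so it entered the test through its shZDHHC15 counts. BCL11A had 34 and 19 counts against 66 and 44, and its call was lost without shCON replicate 2 (adjusted p = 0.225) and without shZDHHC15 replicate 1 (adjusted p = 0.314). NFIB (log2 fold change 0.50) lost its call without shZDHHC15 replicate 1 (adjusted p = 0.0596).

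Genes known to answer to ESR1 or to mark luminal tumours were read beside it, 30 in all, of which 20 entered the test. Of these 10 were higher, 2 lower and 8 did not pass (60% called against 42.0% of all genes tested), with a median log2 fold change of 0.38. RET, a receptor tyrosine kinase induced by oestrogen, had 19 and 20 counts against 106 and 105 (log2 fold change 2.31, SE 0.28, edgeR adjusted p = 1.67e-05), and AGR2, a secretory disulfide isomerase, had 57 and 64 against 302 and 264 (log2 fold change 2.10, SE 0.20). These joined ESR1 on the higher side.

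The oestrogen-induced genes TFF3, TFF1 and GREB1 had too few counts to enter the test. TFF3 was at 0 throughout, TFF1 had 0 and 1 counts against 1 and 3, and GREB1 had 2 and 4 against 8 and 6. CCND1 (cyclin D1) was lower, with 58294 and 53115 counts in shCON and 22052 and 27309 in shZDHHC15 (log2 fold change -1.30, SE 0.09, edgeR adjusted p = 6.60e-08). STC2, a secreted stanniocalcin, was lower too (log2 fold change -0.51, SE 0.09). CA12 was at 0 in both controls and at 10 and 11 counts in shZDHHC15, at least 3.20-fold higher against the floor. It is among the 10 genes of this list counted as higher, and it entered the test only through its shZDHHC15 counts.

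Genes of the basal programme linked to p63 were called on both sides, at a share near that of all genes. Of 20 genes 18 entered the test, 3 were higher, 6 lower and 9 did not pass (50% called against 42.0% of all genes tested), with a median of -0.06 that turned to 0.01 with libraries scaled by total count only. Keratins of basal cells were lower, as were the simple keratins KRT8, KRT18 and KRT7 among the epithelial markers (log2 fold changes -1.62, -1.58 and -0.99). KRT14 had 97 and 103 counts against 46 and 63, a 2-fold lower level (SE 0.24 on the log2 scale, edgeR adjusted p = 0.00376), and KRT6A had 2110 and 2232 against 1185 and 1647 (log2 fold change -0.75, SE 0.12). KRT5 had 43939 and 46735 counts against 29038 and 34696 (log2 fold change -0.64, SE 0.10). The genes that were higher were DST (dystonin) with 1543 and 783 counts against 3238 and 2989, the atypical cadherin FAT2 with 26 and 18 against 100 and 67, and the laminin chain LAMA3. The adhesion genes ITGA6, COL17A1 and LAMB3 did not pass, and ITGB4 was slightly lower (log2 fold change -0.28).

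Genes of the epithelial junction programme under grainyhead factors were likewise called on both sides at a share near that of all genes. All 25 entered the test, with 5 higher, 8 lower and 12 not passing (52% called against 42.0% of all genes tested), and a median of -0.06 that turned to 0.02 with libraries scaled by total count only. MAL2, an apical transport protein, had 5682 and 5154 counts in shCON and 1885 and 2293 in shZDHHC15 (log2 fold change -1.501, SE 0.10, edgeR adjusted p = 2.27e-08), and the claudin CLDN3 had 343 and 403 against 194 and 180 (log2 fold change -1.12, SE 0.16). TJP3, a tight junction scaffold, went the other way, with 223 and 189 counts against 1303 and 941 (log2 fold change 2.33, SE 0.17, edgeR adjusted p = 7.54e-08). CDH1 (E-cadherin), the best known GRHL2 target, did not pass the test, with 6892 and 5950 counts against 6712 and 6814 (log2 fold change -0.05).

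Of 10 genes of the luminal progenitor and of milk, which ELF5 and STAT5 serve, only 5 entered the test. The caseins CSN1S1, CSN2 and CSN3 were at 0 in all samples, as ELF5 was. PRLR (prolactin receptor) had 92 and 67 counts against 242 and 257 (log2 fold change 1.53, SE 0.19, edgeR adjusted p = 1.51e-05). ALDH1A3, an aldehyde dehydrogenase of luminal progenitors, had 18568 and 18254 counts against 10880 and 13227 (log2 fold change -0.74, SE 0.09, edgeR adjusted p = 1.97e-05). With 3 higher, 1 lower and 1 not passing (80% called against 42.0% of all genes tested) and the rest of the list under the filter, the median of 1.07 describes 5 genes only. It was 0.63 over genes with at least 10 counts in every sample and 0.73 without a filter on low counts. The genes counted as higher include PRLR and STAT5A, which are also counted among the luminal targets and the luminal factors, in that order. They also include KIT, with 2 and 1 counts in shCON and 18 and 11 in shZDHHC15. KIT entered the test only through its shZDHHC15 counts, so its direction was set by the filter.

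The genes most like each factor over the 4 samples were named by the distance between centred log2 CPM values, among protein-coding genes of a like level outside the lists. With only 4 samples many genes come close, so these are a description. ESR1 was nearest to BRCA2, with 289 and 175 counts against 534 and 528 (distance 0.0647), and to FAM214A (0.0774). TP63 was nearest to INTS6 (0.0257) and ZNF318 (0.0358), and TFAP2A to FAM217B (0.0730) and GPSM2 (0.0814). For GRHL2 these were RNF10 (0.0163) and INCENP (0.0251), for GATA3 SMUG1 (0.0275) and TMEM184A (0.0308), for FOXA1 RAB9A (0.0265) and MICALL1 (0.0270), and for ELF3 VCP (0.0646), the second nearest.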

How the data were processed

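RNA of HCC1954 cells was analysed in 4 samples, 2 shCON and 2 shZDHHC15, grouped by their labels. The authors deposited 1 table of raw read counts per gene, not normalized, with gene length, biotype and transcription factor family. The submitters' processing notes name HISAT2, StringTie, SAMtools and hg38, and libraries were made with the NEBNext Ultra kit. The counting tool, annotation and use of strand are not given in the sources used here. All 58735 genes matched GENCODE release 29 on GRCh38 in start, end and symbol, and all 4 columns of counts were used.

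The 15817 genes kept by filterByExpr entered glmQLFit (legacy = FALSE) and glmQLFTest of edgeR 4.0.16 (limma 3.58.1, R 4.3.3) with TMM scaling and the group as the term, two-sided, with Benjamini-Hochberg adjustment and a threshold of 0.05. The standard error is the absolute log2 fold change over the square root of F. The scripts were tested on simulated data. CPM used libraries scaled by TMM, with factors between 0.962 and 1.03. TPM used gene lengths from the deposited table and no further scaling. A gene with 3 counts or fewer in every sample of a group was given as a bound against 3 counts per library. An exact permutation test of 2 against 2 samples cannot go below p = 0.333, so none was used for single genes. The counts of the samples within each group differed by more than sampling noise (chi-square per degree of freedom 8.32 and 6.79), so no pair appears to be a duplicate of the same library, which does not show that the samples are separate cultures.

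The factors and gene lists were chosen with earlier results of these data known, and no list was tested. The lists overlap, so the same gene can be counted in several of them. Named by rule were the 9 factors, genes overlapping their exons or starting within 2000 bases, ZDHHC15 and YAP1, paralogues and other lineage factors that passed at a mean of 200 counts or more where higher, the 2 largest rises and falls of each list at 50 counts or more, and the 2 genes nearest each factor. Other genes, and the family shares, were chosen after their values were seen. Alternatives were DESeq2 1.42.0 size factors and Wald test, scaling by total count, other count filters, a replicate block and leaving out each sample. Promoter windows came from RefSeq (GRCh38.p14). Some genes that the naming rule picks are not reported here.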

Additional observations from a re-analysis of the deposited data

How the results depend on the processing

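The calls of ESR1, TP63 and TFAP2A held under all alternatives run. Without a filter on low counts, 2282 instead of 3427 genes were higher, with more genes tested (30168). With libraries scaled by total count only, 1 factor was lower instead of 2, since GRHL2 no longer passed (-0.22, adjusted p = 0.0603), ELF3 passed (0.26, adjusted p = 0.0179), and the medians of the p63 and grainyhead programmes turned to 0.01 (0.013) and 0.02 (0.017); this scaling moved the median of all genes by 0.07. GATA3 passed with DESeq2 size factors (-0.30, adjusted p = 0.0442). The replicate numbers are not said to pair samples, and same-numbered samples did not deviate together (correlation 0.06); with the number as a replicate block, GATA3 passed (-0.29, adjusted p = 0.0336), and 3723 genes were higher and 3502 lower. Where a sample was left out, the lone sample of its group was assumed to vary like the other group. So fitted, between 1 and 2 factors were lower, GRHL2 lay between -0.32 and -0.28 and FOXA1 between -0.009 and 0.09, and MICALL1, the neighbour of FOXA1, between -0.004 and 0.077, both below 0 only without shCON replicate 1. The causes of these changes were not tested. Without division by length, 5 places in the order of the factors differed. The 95% intervals of FOXA1 and ELF3 include 0, and at this depth levels under 3 counts per library went unseen.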

Other observations

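The families of the 9 factors were also read as the table assigns them, as counts over all their tested genes. Of 24 tested forkhead genes, which include FOXA1, 6 were higher and 0 lower (25% called against 42.0% of all genes tested). Of 20 tested ETS genes, with ELF3, 4 were higher and 4 lower (40% called). Of 11 tested GATA-type zinc finger genes 3 were higher and 2 lower (45.5% called). Of 7 tested genes in the oestrogen receptor-like family 3 were higher and 2 lower (71.4% called). Of 4 tested AP-2 genes 1 was higher and 1 lower (50%). Of 5 tested genes in the family of GRHL2 1 was higher and 1 lower (40%). Of 3 tested p53 family genes 2 were higher and 0 lower (66.7%). Among the 1090 tested transcription factor genes 275 were higher and 168 lower (40.6% called). These families were looked up after the values were seen and were not tested.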
